A study of Homo sapiens with 54 samples.

Results

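The CRISPRi knockdown (KD) of *TRA2B* in NCI-H23, a cell line derived from a lung adenocarcinoma, was compared with the Control KD of the same line. The comparison was made over 16293 of the 55906 genes listed for the line, those with at least 1 TPM (a transcript abundance corrected for transcript length and library size, summed per gene) in at least 4 of its 12 libraries. It rests on 6 of the 54 RNA-seq libraries of the series, 3 of *TRA2B* KD and 3 of Control KD. All 6 came from NCI-H23 cells with stable Zim3-dCas9, in which a catalytically dead Cas9 brings the repressor domain of ZIM3 to the promoter that a guide matches and blocks transcription there. They were collected on day 5 after transduction with guides against *TRA2B* or against control loci. The other 6 libraries of the line, 3 of *TRA2A* KD and 3 of *TRA2A/B* dual KD, were made the same way and shared the estimate of variance. A549, another lung adenocarcinoma line, carried the same repressor and the same 4 kinds of guides, while LN229 and LN319 were glioblastoma lines that overexpressed luciferase (Luc), in which Cas9 knocked the gene out (KO), with Control KO and *TRA2B* KO cells alike collected on day 7. No source used here says whether replicates were separate transductions, so p-values measure only the spread between the libraries.

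TRA2B and its paralog TRA2A are RNA-binding proteins with arginine/serine-rich domains, related to the SR proteins. They bind purine-rich enhancers in exons and promote the inclusion of these exons in mRNA. *TRA2* transcripts hold a poison exon, an exon whose inclusion marks the transcript for nonsense-mediated decay, and TRA2 proteins promote the inclusion of such exons, which limits their own level and that of the paralog. Gene-level TPM sums over all transcripts of a gene, so exon inclusion was not measured here.

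The TPM of *TRA2B* checks the label of the libraries, and the guides listed by the study for CRISPRi lie at its start. They are shown because every comparison starts from them, written 5′ to 3′ in lower case with the adjacent NGG motif (PAM) that Cas9 requires, as read from the genome, in capitals:
TRA2B guide 1: ggaggcggtgcggagcatttCGG
TRA2B guide 2: cggagcatttcggctctgagCGG
ROSA26 control guide: gagtcgcttctcgattatgggCGG
Each of these guides had 1 exact match in GRCh38. *TRA2B* guide 1 matched chr3:185937984-185938003 on the minus strand, 12 to 31 bases downstream of the RefSeq start of *TRA2B*, and guide 2 matched chr3:185937974-185937993 on the same strand, at bases 22 to 41. Both sites are exonic, in the untranslated part of the *TRA2B* transcript and outside coding sequence, and they share 10 bases. The ROSA26 guide of 21 bases matched chr3:9396264-9396284 on the minus strand, in an exon of the noncoding gene *THUMPD3-AS1*. Its sequence was read from an entry for Cas9 knockout in the guide list of the study, not from one for CRISPRi. The RefSeq promoter window of *TRA2B* (GRCh38.p14, chr3:185937965-185938264, minus strand), from 250 bases before the start to 50 after it, is shown with the 30 bases covered by the guides in capitals:
TRA2B promoter: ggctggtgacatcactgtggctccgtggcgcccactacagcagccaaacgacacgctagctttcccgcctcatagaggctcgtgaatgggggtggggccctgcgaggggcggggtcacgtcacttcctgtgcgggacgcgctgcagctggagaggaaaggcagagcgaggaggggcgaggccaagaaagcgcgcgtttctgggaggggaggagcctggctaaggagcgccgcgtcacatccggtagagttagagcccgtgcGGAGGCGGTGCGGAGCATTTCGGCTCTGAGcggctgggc
The guide list pairs the *TRA2B* guides with the AAVS1 guide, the *TRA2A* guides with the ROSA26 guide, and AAVS1 with ROSA26 for the control. Which of these vectors the sequenced cells carried is not stated. If they were used, the ROSA26 guide was in Control KD and *TRA2A* KD but not in *TRA2B* KD or dual KD, and its absence cannot be told apart from the repression of *TRA2B* in any gene that was higher or lower in *TRA2B* KD. The AAVS1 guide was then in Control KD and *TRA2B* KD but not in *TRA2A* KD or dual KD. Comparisons with *TRA2A* KD or dual KD would then differ in control guides too.

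*TRA2B* was at 80.3, 103 and 93.8 TPM in the Control KD libraries and at 8.95, 11.4 and 8.87 TPM in the *TRA2B* KD libraries. All *TRA2B* KD libraries were far below all Control KD libraries, with a mean of 9.75 ± 1.45 TPM against 92.2 ± 11.3 (SD, n = 3), and 10.6% of the control level remained. In limma on log2(scaled TPM + 0.1), with Benjamini-Hochberg adjustment over all 16293 genes, this was a log2 fold change of -3.35, SE 0.101, adjusted p = 2.92e-08. In bulk RNA, fewer cells with a transcript and less of it per cell cannot be told apart. Of the 15 other tested genes within 1 Mb of *TRA2B*, 0 passed an adjusted p of 0.05 in limma (lowest adjusted p = 0.385), beside 0.196% of all genes tested, 2 had an unadjusted p under 0.05, beside 10.6%, and their log2 fold changes ran from -0.70 to 0.85. *IGF2BP2* and *ETV5*, the nearest protein-coding genes on either side, had log2 fold changes of 0.18 (adjusted p = 0.672) and 0.31 (adjusted p = 0.421).

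*TRA2A*, the paralog, rose in *TRA2B* KD. It was at 102, 107 and 105 TPM in Control KD and at 149.6, 156 and 161 TPM in *TRA2B* KD, a 1.49-fold difference of the means with no overlap between the groups. The limma fit gave a log2 fold change of 0.46, SE 0.068, adjusted p = 0.0259. The direction was the same under each of 18 alternative settings (0.42 to 0.57 on the log2 scale), but the adjusted p was under 0.05 in 9 of them and in 0 of the 6 that left out 1 library, where it was 0.0714 to 0.171. With the replicate block, a fit that treats the replicate number as a batch, it was 0.0616. A two-sided exact permutation test of 3 against 3 libraries cannot go below p = 0.1 for either paralog. The reverse comparison had the same form, since *TRA2B* was at 136, 129 and 143 TPM in *TRA2A* KD, a log2 fold change over Control KD of 0.58 (limma, adjusted p = 0.0237).

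Few genes passed the test in *TRA2B* KD, and most of those that passed rose. At an adjusted p under 0.05 in limma, 32 genes changed (0.196% of those tested), 26 up (0.16%) and 6 down (0.0368%). Of these, 18 also had an absolute log2 fold change above 1 and are called DEGs here (0.11%), 15 up (0.0921%) and 3 down (0.0184%). The upregulated DEGs *RNU6-1053P*, *RALY-AS1*, *A1BG-AS1*, *IGFN1* and *AIFM3* were under 1 TPM in every Control KD library. They passed the filter only through the other groups of the line, and the counts of genes up include them. The median log2 fold change of all genes tested was 0.0031, and 50.6% were higher in *TRA2B* KD. An unadjusted p under 0.05 was reached by 1729 genes (10.6%). In the 6 fits that each left out 1 library, 9 of the 32 genes passed every time (*TRA2B*, *STAT6*, *FBXO44*, *MTIF2*, *TM4SF1*, *FBXO2*, *F2RL1*, *TICAM1* and *LZTS2*) and 23 lost the call at least once, 10 of them every time (*KIFC1*, *RP3-339A18.6*, *SNAP25*, *TRA2A*, *PCBP2*, *RALY-AS1*, *A1BG-AS1*, *IGFN1*, *DCXR* and *A1BG*). There were 10, 9 and 7 DEGs without *TRA2B* KD replicates 1, 2 and 3, and 13, 21 and 17 without Control KD replicates 1, 2 and 3. With the replicate block, 9 genes were DEGs and 16 passed the adjusted p. In *TRA2A/B* dual KD against the same Control KD libraries the number of DEGs was 2089 (12.8%), and in *TRA2A* KD it was 41 (0.252%). No 2 of the 12 libraries were identical. The 6 libraries had median correlations with the others of 0.911 to 0.933, and Control KD replicate 1 had the lowest. The share of TPM on mitochondrially encoded genes was 23.1 to 31.9% in Control KD, highest in replicate 1, and 17.8 to 19.3% in *TRA2B* KD. That share moved with the groups, and its part in the results was not tested, except that 25 of the 32 genes also passed when these genes were left out and the rest rescaled, where 15 genes were DEGs.

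**Figure D1:**
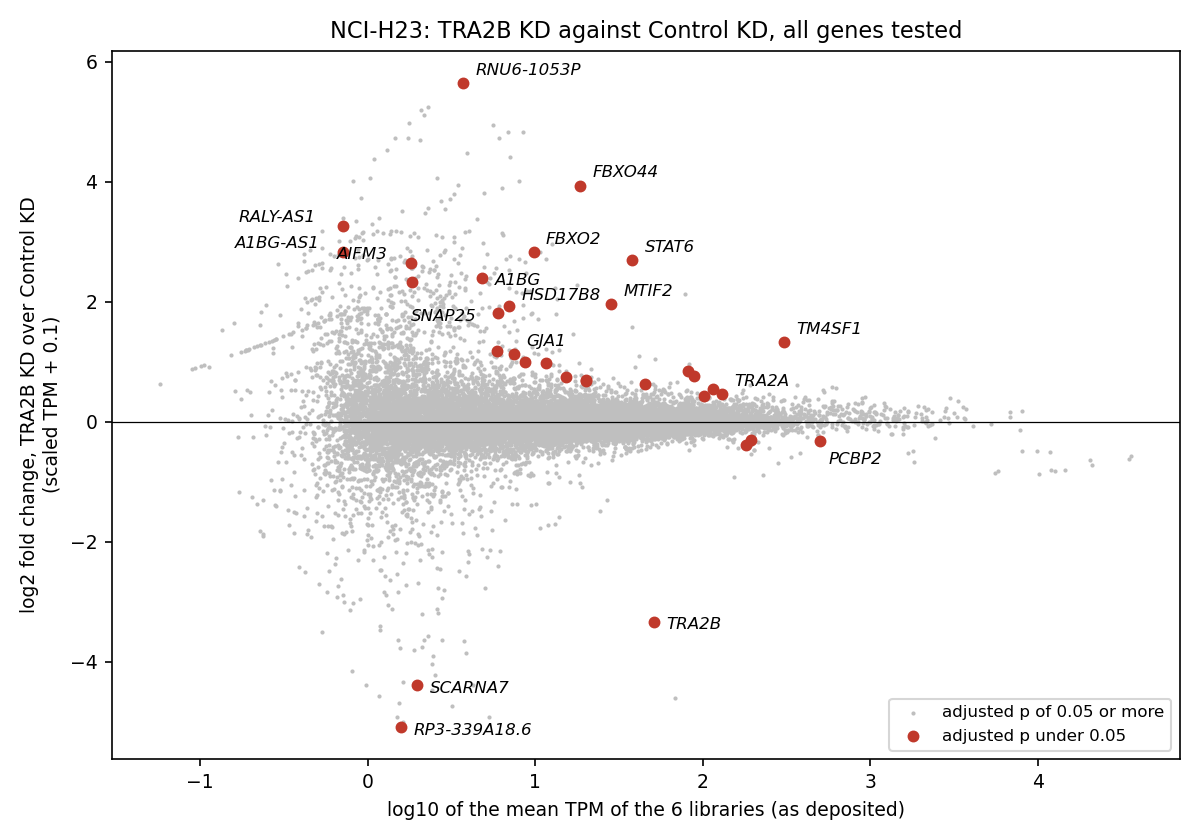
Level and change of the genes tested in NCI-H23. The x axis gives log10 of the mean TPM of the 6 libraries, the y axis the log2 fold change of *TRA2B* KD over Control KD, and red points are the 32 genes with an adjusted p under 0.05; 5 genes at 0 TPM in all 6 libraries are not drawn. *STAT6*, *FBXO44*, *FBXO2* and *MTIF2* lie at 2.70, 3.94, 2.83 and 1.96 and *TRA2B* at -3.35, while uncalled genes spread widely at low TPM and narrowly at high TPM.

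*STAT6*, the transcription factor that carries interleukin-4 and interleukin-13 signals to the nucleus, was at 8.79, 9.96 and 9.37 TPM in Control KD and at 66.6, 62.2 and 70.5 TPM in *TRA2B* KD. It was 7.09-fold higher by the means (log2 fold change of 2.70, SE 0.083, adjusted p = 2.92e-08), and every *TRA2B* KD library was above every Control KD library. *MTIF2*, the mitochondrial initiation factor of translation, rose from 11.8, 10.7 and 9.88 TPM to 43.2, 48.8 and 45.2 TPM (log2 fold change of 1.96, SE 0.114, adjusted p = 1.36e-05). *HSD17B8*, an enzyme of mitochondrial fatty acid synthesis, was at 1.55, 2.85 and 4.0 TPM and at 11.8, 9.99 and 11.5 TPM (log2 fold change of 1.93, SE 0.254, adjusted p = 0.0137). *AIFM3*, a mitochondrial relative of apoptosis-inducing factor, was at 0.117, 0.631 and 0.6498 TPM and at 3.71, 2.97 and 2.89 TPM, so its controls were near the lower limit of the values (adjusted p = 0.0459).

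*FBXO44* and *FBXO2* code for F-box proteins, the subunits that choose substrates for SCF ubiquitin ligases, and they lie head to head on chromosome 1. *FBXO44* was at 2.09, 1.57 and 2.57 TPM in Control KD and at 35.4, 35.2 and 35.2 TPM in *TRA2B* KD (log2 fold change of 3.94, SE 0.194, adjusted p = 3.14e-06). *FBXO2*, which recognizes glycoproteins, was at 1.68, 1.71 and 3.49 TPM and at 19.4, 15.7 and 16.8 TPM (log2 fold change of 2.83, SE 0.236, adjusted p = 0.000376). Their RefSeq starts are 22 bases apart on opposite strands, at bases 11654407 for *FBXO44* and 11654429 for *FBXO2*, so that the transcripts overlap at their start, and the Gencode genes share a longer stretch (chr1:11654375-11663327 and chr1:11637018-11655785). The strand setting of the quantification is not given in the sources used here, so reads of that stretch may count for either gene. The window of *FBXO44* (GRCh38.p14, chr1:11654157-11654456, plus strand) is shown because both genes moved together, with the 77 bases that it shares with the window of *FBXO2* in capitals:
FBXO44 promoter: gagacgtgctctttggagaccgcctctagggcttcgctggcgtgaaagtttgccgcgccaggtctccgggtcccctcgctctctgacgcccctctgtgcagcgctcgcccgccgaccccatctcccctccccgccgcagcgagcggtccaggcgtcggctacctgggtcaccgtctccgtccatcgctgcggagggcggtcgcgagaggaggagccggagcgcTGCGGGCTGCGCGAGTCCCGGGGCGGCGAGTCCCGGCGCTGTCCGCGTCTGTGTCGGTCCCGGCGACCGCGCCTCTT
*FBXO6*, the next F-box gene of the cluster, had a log2 fold change of -0.11 (adjusted p = 0.738), and *MAD2L2*, whose annotated span overlaps that of *FBXO44* on the other strand, of 0.13 (adjusted p = 0.525).

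Another pair shared a locus. *A1BG*, coding for a plasma glycoprotein of the immunoglobulin superfamily, was at 1.70, 1.94 and 0.755 TPM in Control KD and at 9.08, 8.10 and 7.42 TPM in *TRA2B* KD (log2 fold change of 2.39, SE 0.394, adjusted p = 0.0459). Its antisense transcript *A1BG-AS1* was at 0.0974, 0.0963 and 0.0642 TPM and at 1.77, 0.868 and 1.38 TPM (adjusted p = 0.0377). The genes overlap on opposite strands of chromosome 19 (chr19:58345178-58353492 and chr19:58347718-58355455), and although the libraries were directional, the strand setting of the quantification is not given in the sources used here. Within 50 kb of a DEG lay 37 tested genes that were not themselves called, and 4 of these had an unadjusted p under 0.05, beside 10.6% of all genes tested. One was *TM4SF1-AS1*, named after its values were seen, on the opposite strand 86 bases from the DEG *TM4SF1*. It was at 0.0303, 1.56 and 1.74 TPM in Control KD and at 3.22, 3.91 and 5.18 TPM in *TRA2B* KD, a log2 fold change of 2.41 (SE 0.854, limma adjusted p = 0.364).

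Genes of the cell surface and of signalling were also among those that rose. *TM4SF1*, a tetraspanin-like protein of the tumor cell surface, was the most abundant DEG, at 152, 175 and 170.0 TPM in Control KD and at 430.0, 449 and 467 TPM in *TRA2B* KD (log2 fold change of 1.32, SE 0.087, adjusted p = 3.79e-05). *F2RL1*, the protease-activated receptor PAR2, was at 51.9, 58.5 and 57.4 TPM and at 103, 110.5 and 111 TPM (log2 fold change of 0.84, adjusted p = 0.000644). *CD151*, a tetraspanin that binds laminin-binding integrins, rose 1.58-fold as deposited (log2 fold change after scaling of 0.54, adjusted p = 0.0145). *GJA1*, the gap junction protein connexin 43, was at 4.44, 4.64 and 4.13 TPM and at 9.62, 11.03 and 11.03 TPM (log2 fold change of 1.13, SE 0.138, adjusted p = 0.00790). *TTYH3*, of the tweety family of membrane proteins, rose 1.74-fold as deposited (log2 fold change after scaling of 0.68, adjusted p = 0.00700). *TICAM1*, the adaptor of Toll-like receptor 3, rose 1.83-fold as deposited, from 10.8 ± 0.421 TPM to 19.8 ± 1.05 TPM (SD, n = 3). Its log2 fold change after scaling was 0.75 (limma adjusted p = 0.00553).

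Genes of secretion and vesicles included *VGF*, the precursor of neuropeptides, at 14.4, 14.97 and 14.8 TPM in Control KD and at 25.3, 26.0 and 25.9 TPM in *TRA2B* KD (adjusted p = 0.00937). *SNAP25*, a SNARE protein of synaptic vesicle fusion, was at 2.16, 2.35 and 2.84 TPM and at 9.06, 11.1 and 8.60 TPM (log2 fold change of 1.82, SE 0.269, adjusted p = 0.0259). Both are best known from neurons and endocrine cells. Of genes of metabolism and the cytoskeleton, *DNPH1*, which hydrolyses hydroxymethylated deoxynucleotides, rose 1.83-fold as deposited (log2 fold change after scaling of 0.76, adjusted p = 0.0140). *DCXR*, dicarbonyl and L-xylulose reductase, rose 1.67-fold as deposited (log2 fold change after scaling of 0.62, adjusted p = 0.0446). *LZTS2*, a centrosomal leucine zipper protein, was at 6.34, 7.13 and 8.86 TPM and at 16.3, 16.0 and 15.1 TPM, with a log2 fold change of 0.98 that fell just short of the minimum for a DEG (adjusted p = 0.00597). *KIFC1*, the minus-end kinesin that clusters centrosomes in mitosis, rose 1.45-fold as deposited, from 82.9 ± 4.69 TPM to 120.4 ± 2.23 TPM (SD, n = 3). Its log2 fold change after scaling was 0.42 (limma adjusted p = 0.0173).

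*C21orf58* was at 4.05, 7.21 and 5.57 TPM and at 12.8, 11.6 and 11.3 TPM, and *C6orf226* at 2.64, 4.19 and 3.47 TPM and at 9.15, 8.66 and 7.49 TPM. *IGFN1*, an immunoglobulin and fibronectin domain protein of muscle, was at 0.644, 0.490 and 0.386 TPM and at 2.95, 2.71 and 3.85 TPM. *RALY-AS1*, antisense to *RALY*, was at 0, 0.0803 and 0.0762 TPM and at 1.39, 1.55 and 1.17 TPM. These 4 genes had adjusted p values of 0.0259, 0.0377, 0.0418 and 0.0377 in that order. *RNU6-1053P*, a pseudogene of the U6 spliceosomal RNA, was listed at 0 in all Control KD libraries and at 15.6, 1.58 and 5.22 TPM in *TRA2B* KD (adjusted p = 0.00700). It was also at 3.24, 3.17 and 5.38 TPM in *TRA2A* KD and at 3.53, 8.16 and 11.1 TPM in dual KD. *TRA2B* KD did not pass against *TRA2A* KD (difference of 0.28 on the log2 scale, limma adjusted p = 0.864). In A549 the gene was at 10.7, 0.493 and 22.5 TPM in Control KD and at 10.2, 2.74 and 0 TPM in *TRA2B* KD. U6 copies are nearly identical and lack a poly(A) tail, so its TPM in poly(A)-selected libraries is uncertain. Of the 15 upregulated DEGs, 12 had a mean under 5 TPM in Control KD.

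The 6 genes that fell were *TRA2B* and 5 others. *RBM3*, a cold-inducible RNA-binding protein, was at 197, 196 and 199.99 TPM in Control KD and at 165, 160.2 and 167 TPM in *TRA2B* KD (log2 fold change of -0.38, SE 0.055, adjusted p = 0.0220). *PCBP2*, a poly(C)-binding protein of mRNA stability and translation, was at 535, 543 and 531 TPM and at 464, 469 and 466 TPM (adjusted p = 0.0377). *DCAF8*, a substrate receptor of CUL4 ubiquitin ligases, was at 205, 203 and 211 TPM and at 189, 174 and 178 TPM (adjusted p = 0.0400). As deposited, these levels were 83.0, 87.0 and 87.2% of control, and the groups did not overlap in any of them. After scaling, the log2 fold changes of *PCBP2* and *DCAF8* were -0.32 and -0.31. The other genes that fell were at the lower limit, *SCARNA7*, a small Cajal body RNA within *KPNA4*, at 2.55, 3.71 and 5.08 TPM and at 0.575, 0 and 0 TPM (adjusted p = 0.0259), and *RP3-339A18.6*, at 3.08, 2.81 and 3.63 TPM and listed at 0 in all *TRA2B* KD libraries (adjusted p = 0.0244).

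Ranked by fold change alone, small RNA genes prevailed. Among genes with a mean of at least 5 TPM in either group and no overlap between groups (overlap was absent in 24.6% of all genes tested), the 10 highest were *RNU6-1053P*, *FBXO44*, *FBXO2* and 7 that did not pass the test: *RNU6-48P*, *RNVU1-2*, *SNORA23*, *SNORA13*, *SNHG25*, *RN7SL113P* and *DUOX1*, with log2 fold changes of 2.78 to 4.95 and adjusted p values of 0.150 to 0.619. Of these 7, *DUOX1*, a dual oxidase that makes hydrogen peroxide, codes for a protein. It was at 0.0153, 1.88 and 1.43 TPM in Control KD and at 8.67, 4.26 and 7.79 TPM in *TRA2B* KD. The 10 lowest were *TRA2B* and 9 that did not pass, *MIR6512*, *RNU5E-4P*, *RNY4P36*, *RN7SL405P*, *SNORD88A*, *MIR573*, *SCARNA9*, *RN7SL667P* and *ARHGAP35*, with log2 fold changes of -4.92 to -1.09 and adjusted p values of 0.102 to 0.576.

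In a direct comparison with *TRA2A* KD, which used the same *TRA2B* KD libraries but other reference libraries, 65 genes were DEGs (0.399%), 46 higher in *TRA2B* KD (0.282%) and 19 lower (0.117%). At an adjusted p under 0.05 without a minimum fold change there were 309 (1.9%). If the listed vectors were used, *TRA2B* KD and *TRA2A* KD also differed in their control guide. Of the 30 genes called against Control KD other than the paralogs, 18 also passed against *TRA2A* KD. *STAT6* was at 11.5, 12.9 and 10.8 TPM in *TRA2A* KD, near its Control KD level, and 2.36 lower on the log2 scale than in *TRA2B* KD (adjusted p = 8.09e-08). The difference was 3.24 for *FBXO44* (adjusted p = 1.84e-05), 2.79 for *FBXO2* (adjusted p = 0.000240), 2.93 for *A1BG* (adjusted p = 0.00470), 2.14 for *SNAP25* (adjusted p = 0.00321), 1.92 for *HSD17B8* (adjusted p = 0.00438), 1.47 for *MTIF2* (adjusted p = 0.000124) and 0.95 for *LZTS2* (adjusted p = 0.00231). *RBM3* was 0.52 lower in *TRA2B* KD than in *TRA2A* KD on that scale (a difference of -0.52, adjusted p = 0.00101). *PCBP2* and *DCAF8* were at 453, 469 and 461 TPM and at 187, 182 and 179 TPM in *TRA2A* KD. *TRA2B* KD did not pass against *TRA2A* KD in either (limma adjusted p = 0.273 and 0.153). *TM4SF1* and *DNPH1* were also higher in *TRA2A* KD than in Control KD (log2 fold changes of 0.44 and 0.52, limma adjusted p = 0.0437 and 0.0419). *GJA1* and *DNPH1* lay between the groups in *TRA2A* KD, at 6.74, 7.04 and 6.02 TPM and at 92.9, 72.6 and 103 TPM, and *TRA2B* KD did not pass against it (adjusted p = 0.0763 and 0.248).

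The dual KD libraries, in which *TRA2B* was at 24.1, 21.9 and 23.8 TPM and *TRA2A* at 19.9, 21.4 and 23.1 TPM, had some of these genes at levels like those of *TRA2B* KD and others well below. *STAT6* (60.8, 53.4 and 60.0 TPM), *FBXO44* (55.0, 42.4 and 54.1), *FBXO2* (20.8, 21.5 and 22.5), *MTIF2* (41.9, 51.0 and 46.5), *HSD17B8* (10.1, 10.4 and 8.98), *LZTS2* (17.6, 18.9 and 18.2) and *A1BG* (7.21, 6.95 and 7.18) were above every Control KD library in dual KD as in *TRA2B* KD. *F2RL1* (60.0, 62.3 and 67.3 TPM), *TTYH3* (14.7, 13.9 and 14.7), *GJA1* (3.83, 4.85 and 4.28), *SNAP25* (3.89, 3.25 and 4.13) and *KIFC1* (64.0, 68.1 and 71.8) had dual KD libraries below all *TRA2B* KD libraries, with means of 63.2, 14.4, 4.32, 3.76 and 68.0 TPM beside Control KD means of 55.9, 14.7, 4.41, 2.45 and 82.9 TPM. *KIFC1*, which rose in *TRA2B* KD, fell in dual KD, where all libraries were below all Control KD libraries (log2 fold change of -0.44, limma adjusted p = 0.000140). *F2RL1* and *SNAP25* were above all Control KD libraries in dual KD as deposited and did not pass (log2 fold changes of 0.02 and 0.45, limma adjusted p = 0.847 and 0.203). The comparisons of *TRA2B* KD and of dual KD share their controls, and the difference between these groups was not tested.

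**Figure D2:**
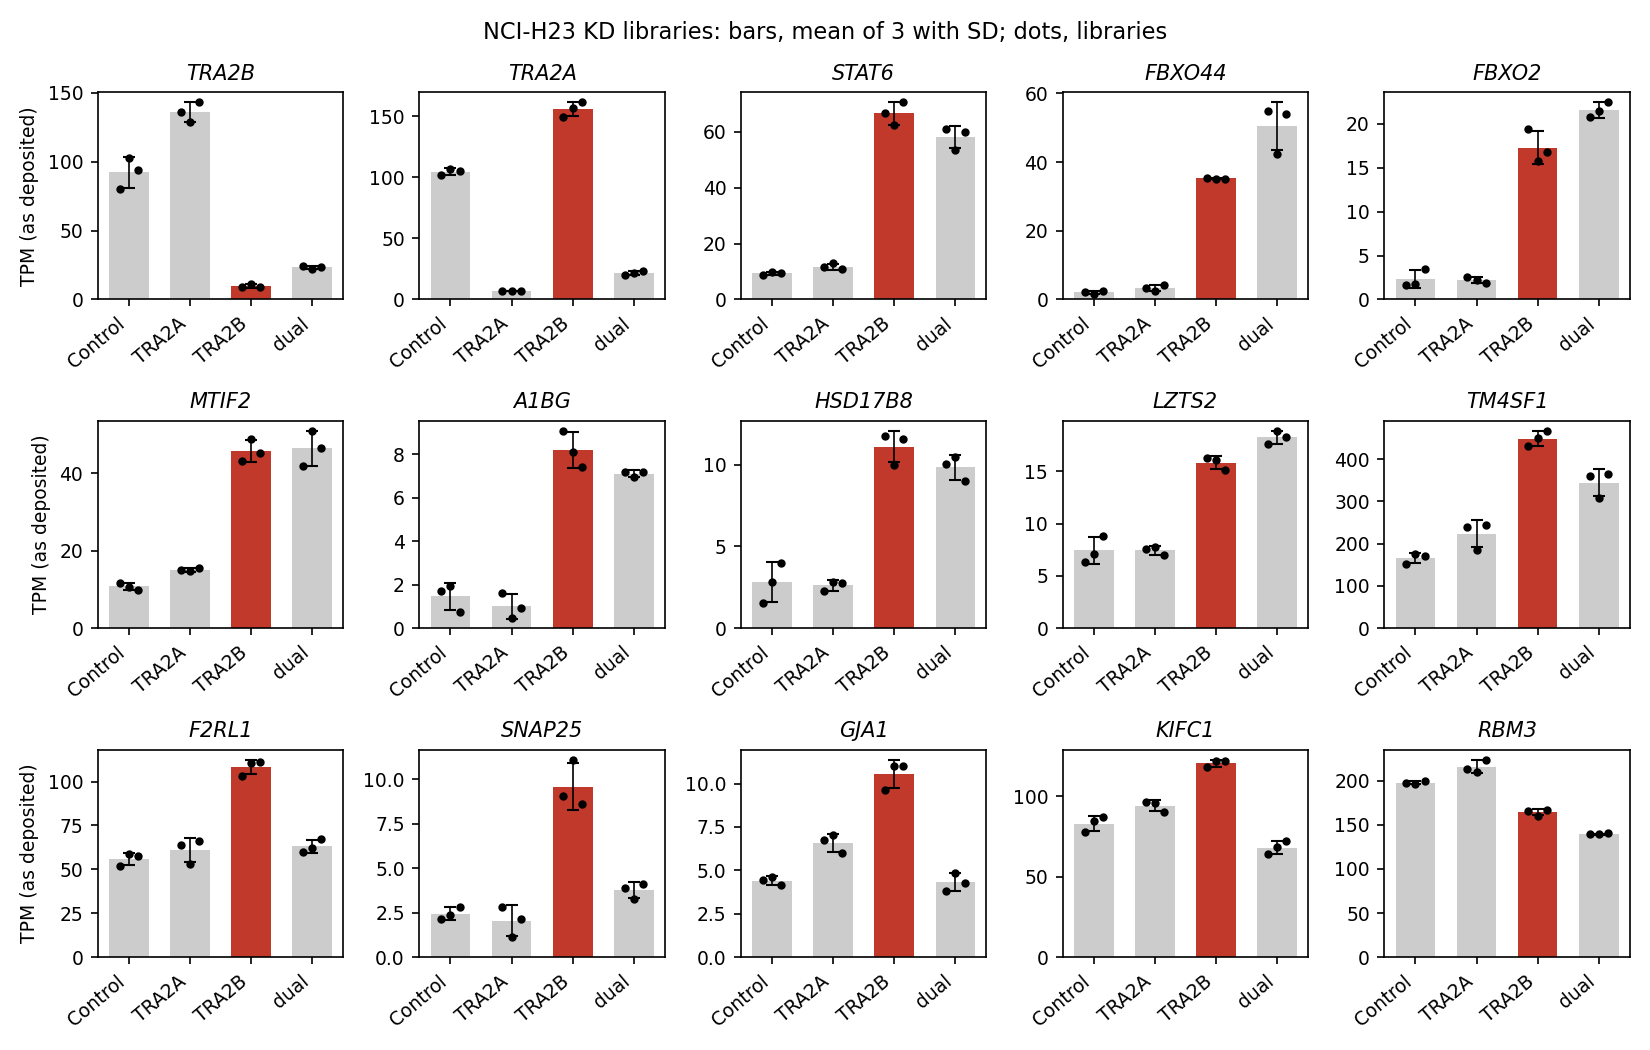
TPM as deposited (y axis, from 0) of 15 genes in the 4 KD groups of NCI-H23. Bars are means of 3 libraries with the SD, dots are libraries, and red bars are *TRA2B* KD. *STAT6*, *FBXO44*, *FBXO2*, *MTIF2*, *A1BG*, *HSD17B8* and *LZTS2* are high in *TRA2B* KD and dual KD and low in Control KD and *TRA2A* KD.

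A549 gave libraries that had no part in the choice of these genes. If the listed vectors were used, A549 *TRA2B* KD lacked the ROSA26 guide too. Its absence then cannot be told apart from the repression of *TRA2B* in A549 either. There *TRA2B* went from 138, 140.1 and 134 TPM in Control KD to 13.5, 14.03 and 12.3 TPM in *TRA2B* KD, a log2 fold change of -3.27 beside -3.35 in NCI-H23. Of the 31 genes called in NCI-H23 other than *TRA2B*, 30 were tested in A549, 28 had the same sign, and 10 (33.3%) had an adjusted p under 0.05 there, against 0.341% of all 16405 genes tested in A549. DEGs numbered 38 in A549 (0.232%), 35 up (0.213%) and 3 down (0.0183%), and 8 genes were DEGs in both lines, which is 44.4% of the NCI-H23 DEGs and 21.1% of the A549 DEGs. In counts of non-overlap after scaling, 26 of the 32 genes called in NCI-H23 had all *TRA2B* KD libraries of A549 beyond all Control KD libraries in the same direction and 0 in the opposite direction, where 19.6% of all genes tested in A549 showed no overlap, 10.3% higher and 9.34% lower. The 26 include the target *TRA2B* itself and *IGFN1*, which did not pass the filter in A549. In NCI-H23 itself 20.3% of all genes showed none after scaling. The tables of the lines were normalized separately, so the fold changes are set side by side without a test between lines.

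*FBXO2* was at 0, 0.173 and 0 TPM in A549 Control KD and at 6.48, 8.15 and 10.2 TPM in A549 *TRA2B* KD (log2 fold change of 5.92, adjusted p = 0.000479), and with controls at or near 0 the fold depends on the added 0.1. *FBXO44* was at 0.796, 1.24 and 0.0348 TPM and at 22.9, 21.7 and 22.1 TPM (5.39, adjusted p = 0.00624). *STAT6* was at 10.2, 7.57 and 3.17 TPM and at 64.6, 58.5 and 59.6 TPM (3.35, adjusted p = 0.00268). All *TRA2B* KD libraries of A549 were above all Control KD libraries in the 3 genes. *SNAP25* (4.70), *A1BG-AS1* (4.47), *A1BG* (4.04) and *HSD17B8* (1.61) were also DEGs in both lines, with adjusted p values of 0.000550, 0.00740, 0.00255 and 0.0110 in A549. *LZTS2* (1.19, adjusted p = 0.00268), *DNPH1* (1.21, adjusted p = 0.0456) and *TTYH3* (0.85, adjusted p = 0.00740) passed in A549 as well. As in NCI-H23, *STAT6* in A549 was at 10.6, 9.47 and 8.10 TPM in *TRA2A* KD and at 40.6, 35.4 and 42.4 TPM in dual KD.

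Other genes differed in value between the lines. *F2RL1*, up in NCI-H23, was at 32.8, 37.5 and 25.7 TPM in A549 Control KD and at 30.1, 33.99 and 34.2 TPM in A549 *TRA2B* KD (log2 fold change of 0.14, adjusted p = 0.692). *MTIF2* was at 18.5, 18.9 and 38.0 TPM and at 37.3, 40.6 and 36.7 TPM (0.78, adjusted p = 0.116), and control replicate 3 of A549 was as high as the KD libraries. Control KD replicate 3 of A549 had a median correlation with the other A549 libraries of 0.837, the lowest of the 12. Without it, 16 of the 30 genes passed in A549, 26 kept the sign, *MTIF2* had a log2 fold change of 1.02 (adjusted p = 0.000783), and 10 DEGs were shared. *TRA2A* had a log2 fold change of 0.47 in A549 (adjusted p = 0.377) beside 0.46 in NCI-H23. The reverse view gave 27 A549 DEGs other than *TRA2B* that were tested in NCI-H23, of which 26 had the same sign there and 9 were among the 32 genes.

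**Figure D3:**
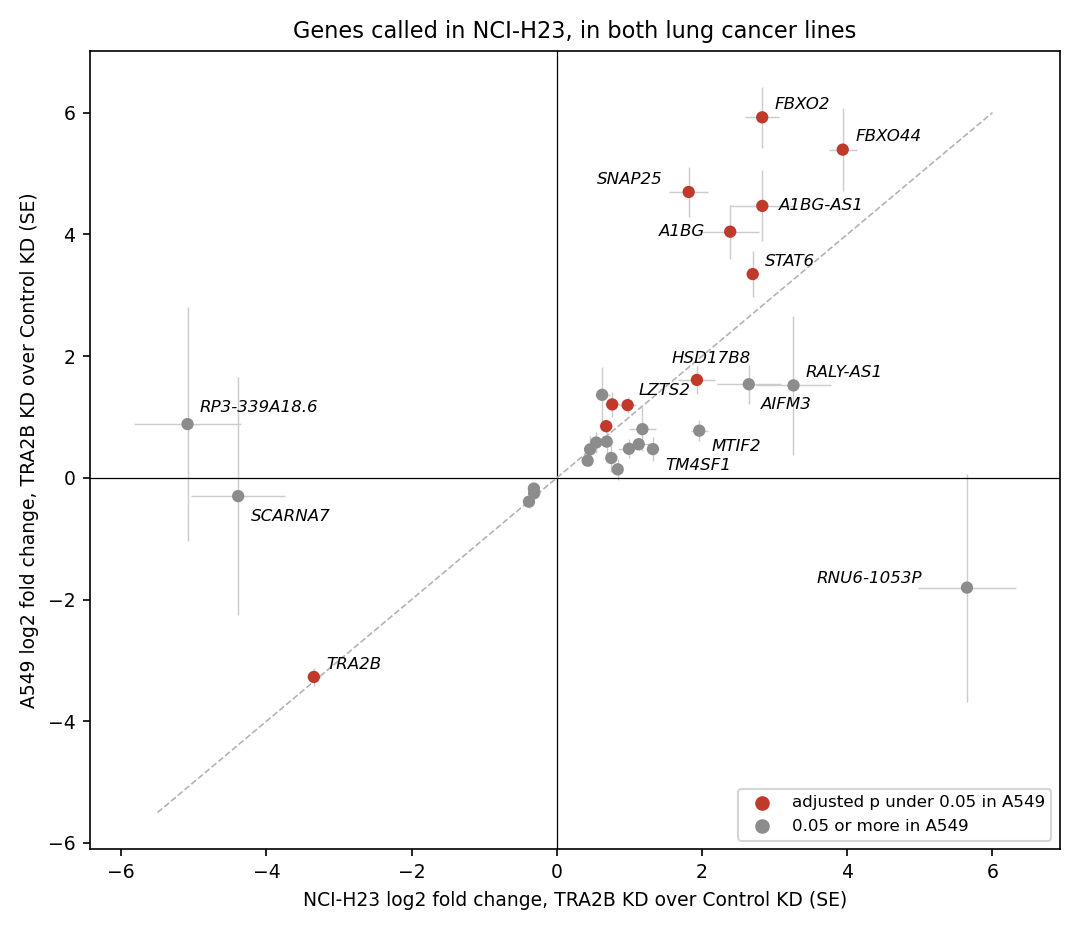
Log2 fold changes with SE of *TRA2B* KD over Control KD in NCI-H23 (x axis) and A549 (y axis) for the genes called in NCI-H23 and tested in A549. Red points had an adjusted p under 0.05 in A549, and the dashed line marks equal change. *FBXO2*, *FBXO44*, *SNAP25*, *A1BG*, *A1BG-AS1* and *STAT6* lie above the line at upper right, *TRA2B* at lower left.

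In the glioblastoma lines, *TRA2B* KO left more of the transcript, at 143, 149.8 and 148 TPM against 202, 232 and 234 TPM in LN229 controls and at 30.6, 32.4 and 29.3 TPM against 90.2, 83.5 and 89.1 TPM in LN319 controls. Cutting by Cas9 need not lower the transcript, so the level is no measure of the loss of protein there. After scaling, 7 of the 32 genes in LN229 and 10 in LN319 moved beyond all controls in the direction seen in NCI-H23, and 3 and 8 moved beyond them in the opposite direction, where 24.2% of all genes tested in LN229 (11.5% higher, 12.7% lower) and 54.8% in LN319 (25.9% higher, 28.9% lower) showed no overlap. *FBXO44* was at 22.4, 14.6 and 14.4 TPM in LN229 controls and at 25.1, 27.9 and 27.6 TPM after KO, and in LN319 at 55.0, 48.2 and 49.4 TPM and at 76.2, 74.3 and 80.4 TPM. *FBXO2*, its neighbour, was at 1.56, 0.940 and 1.25 TPM and at 1.12, 1.03 and 1.36 TPM in LN229, so the groups overlapped. *STAT6* was at 5.54, 3.45 and 6.38 TPM and at 6.48, 7.53 and 5.44 TPM in LN229, and at 1.38, 1.15 and 1.46 TPM and at 2.71, 2.02 and 2.42 TPM in LN319. *RBM3* was lower after KO in both lines, at 142, 139.6 and 128 TPM against 157, 181 and 181 TPM in LN229 and at 102, 111 and 101 TPM against 158, 142 and 154 TPM in LN319. The paralog *TRA2A* was higher after KO in LN229, at 171, 167 and 170 TPM against 105, 111 and 111 TPM. In LN319 *TRA2A* was lower after KO, at 89.5, 84.8 and 97.1 TPM against 101, 107 and 113 TPM.

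Gene lists for splicing factors, stress responses, the cell cycle and adhesion held no called member apart from *TRA2B* and *TRA2A*. The lists are not complete, and the called genes *KIFC1*, *LZTS2*, *PCBP2* and *CD151*, described above, are in none of them. Beside the counts below stand the values over all genes tested, a median of 0.0031, an unadjusted p under 0.05 in 10.6% and an adjusted p under 0.05 in 0.196%. For the SR proteins, the other arginine/serine-rich splicing activators, 11 of 12 were tested, 7 were higher and 4 lower, and the median log2 fold change was 0.13, or 0.06 without Control KD replicate 1. *SRSF5* had the largest value, at 275, 545 and 439 TPM in Control KD and at 656, 566 and 664 TPM in *TRA2B* KD (0.52, adjusted p = 0.525), and Control KD replicate 1 was well below its group. *SRSF7* (0.26), *SRSF3* (0.20), *SRSF9* (0.16), *SRSF2* (0.15), *SRSF8* (0.13) and *SRSF4* (0.03) followed. *SRSF1* (-0.02), *SRSF10* (-0.02), *SRSF6* (-0.08) and *SRSF11* (-0.10) were at or below 0, and the lowest adjusted p of the list was 0.409.

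The genes listed as RT-PCR targets had nearly level totals. The text of the study describes RT-PCR of exons of *CHEK1*, *OFD1* and *CNTRL*, and does not mention *CEP192*. *CHEK1*, a checkpoint kinase, had a log2 fold change of 0.08 (adjusted p = 0.80), *CEP192*, a scaffold of centrosome maturation, 0.11 (adjusted p = 0.710), *OFD1*, a protein of centriolar satellites and cilia, -0.09 (adjusted p = 0.829) and *CNTRL*, a centriole protein, -0.26 (adjusted p = 0.432). *CNTRL* was at 10.3, 10.8 and 10.3 TPM in Control KD and at 9.53, 9.10 and 9.73 TPM in *TRA2B* KD, and *OFD1* at 12.5, 13.4 and 13.3 TPM and at 15.7, 12.5 and 12.01 TPM. All 5 of the other genes with an exon known to be regulated by TRA2 proteins were lower, with a median of -0.11 (0.0030 with TPM as deposited), and *MAPT* was the furthest (-0.35, adjusted p = 0.432). The hnRNPs and other splicing regulators (41 tested) had a median of -0.02 (0.10 with TPM as deposited) and a range of -0.27 to 0.28, from *PTBP3* to *HNRNPA3* (adjusted p = 0.151). Medians were 0.10 for 7 SR protein kinases, with *CLK2* at 0.35 (adjusted p = 0.482), and -0.01 for 16 factors of nonsense-mediated decay. *SRPK3*, the kinase of largest value (1.04, adjusted p = 0.735), was at 0.135, 0.178 and 2.61 TPM in Control KD and at 0.918, 1.19 and 1.31 TPM in *TRA2B* KD, so the groups overlapped and Control KD replicate 3 was above all *TRA2B* KD libraries.

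Apart from the paralogs, the list furthest from 0 was that of mitochondrially encoded genes, of which 15 of 15 were lower, with a median of -0.64, and 12 had an unadjusted p under 0.05. *MT-CYB*, cytochrome b, was at 15006, 11516 and 12217 TPM in Control KD and at 7570, 7654 and 7468 TPM in *TRA2B* KD (-0.88, adjusted p = 0.199), with all *TRA2B* KD libraries below. Of the 15, 0 passed in limma (lowest adjusted p = 0.163), the median was -0.10 after quantile normalization, and in A549 8 of the 15 were higher. snoRNA host genes, whose spliced transcripts are substrates of nonsense-mediated decay, were higher in 13 of 13, with a median of 0.52 and 3 at an unadjusted p under 0.05. *SNHG8* was at 13.5, 58.5 and 34.3 TPM and at 63.4, 60.3 and 80.4 TPM (1.05, adjusted p = 0.466), and *SNHG12* at 15.02, 35.5 and 29.9 TPM and at 57.4, 45.2 and 53.1 TPM (0.92, adjusted p = 0.385). Control KD replicate 1 was the lowest library in both, and without it the median of the list was 0.28. Without that library the median was -0.48 for mitochondrially encoded genes, 0.14 for p53 targets (0.21 with it), 0.17 for metallothioneins (0.32 with it) and -0.11 for integrins and laminins (-0.18 with it).

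Of 24 p53 targets, 18 were higher and 8 had an unadjusted p under 0.05, with *PHLDA3* at 0.64 (adjusted p = 0.167) and *FAS* at 0.72 (adjusted p = 0.541). Of 21 ATF4 targets, 18 were higher with a median of 0.16 and 8 had an unadjusted p under 0.05, *DDIT3* at 0.54 and *CHAC1* at 0.52 being the furthest. *DDIT3* was at 18.8, 39.1 and 38.8 TPM in Control KD and at 51.2, 47.8 and 45.0 TPM in *TRA2B* KD. Control KD replicate 1 was well below its group in *DDIT3*. Immediate early genes (15 of 18 higher, median 0.19), inflammatory cytokines and chemokines (12 of 13 higher, 0.16), ERK feedback genes (12 of 16 higher, 0.10), the BCL2 family (8 of 13 higher, 0.11), collagens (8 of 10 higher, 0.10) and heat shock proteins (12 of 18 higher, 0.07) were close to the p53 and ATF4 lists, and none of their members passed. *HSPA1A*, the inducible chaperone HSP70, came nearest to the threshold among all members of these lists, at 201, 200.1 and 198 TPM in Control KD and at 323, 305 and 272 TPM in *TRA2B* KD (0.47, adjusted p = 0.0826). *HSPA1B*, a near-identical copy that can share its reads, had 0.38 (adjusted p = 0.163). Clustered histone genes had a median of 0.32 with 14 of 19 higher, and their main transcripts lack a poly(A) tail. Interferon-stimulated genes (-0.03, 8 of 19 higher), NRF2 targets (0.02, 9 of 15), hypoxia genes (0.03, 10 of 18) and sterol synthesis genes (-0.05, 8 of 22) had medians near 0, and their signs changed with TPM as deposited for the first and last (0.08 and 0.07) and without mitochondrially encoded genes for the others (-0.02 and -0.01).

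G2/M genes had a median of -0.09 with 36 of 52 lower, S phase genes of -0.03 with 25 of 43 lower, DNA repair genes of -0.08 with 26 of 36 lower, and genes of the centrosome and cilium of -0.05 with 24 of 40 lower, and with TPM as deposited all 4 medians were above 0, at 0.03, 0.08, 0.04 and 0.06. *RRM2*, the regulated subunit of ribonucleotide reductase, was higher (0.35, adjusted p = 0.163), while *G2E3*, a ubiquitin ligase of G2/M, was lower (-0.67, adjusted p = 0.239), as was *LBR*, the lamin B receptor (-0.58, adjusted p = 0.199). Of 17 integrins and laminins 15 were lower, and *ITGB4*, of largest change (-0.68, adjusted p = 0.608), was at 4.40, 1.62 and 1.27 TPM in Control KD and at 1.12, 1.73 and 1.34 TPM in *TRA2B* KD, so the groups overlapped and Control KD replicate 1 alone stood high. All 5 metallothioneins tested were higher. Of 10 neighbours of *TRA2B* listed by name, 8 were tested, with a median of -0.05 (0.06 with TPM as deposited).

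**Figure D4:**
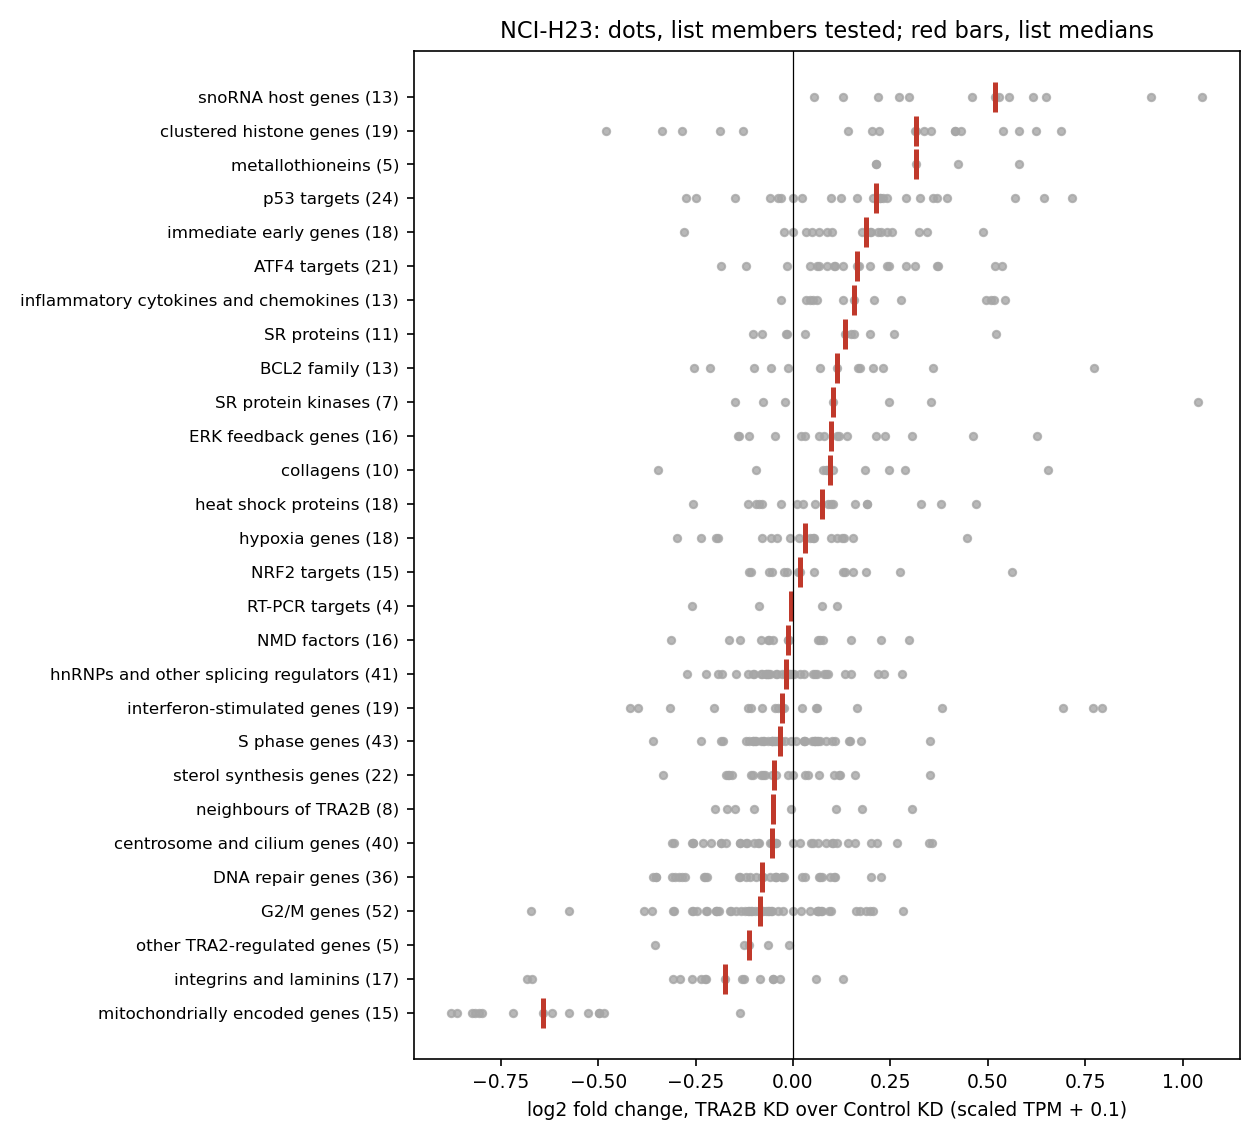
Log2 fold changes (x axis) of the tested members of each gene list in *TRA2B* KD over Control KD of NCI-H23, with the number tested beside the name of the list. Grey dots are genes and red bars are list medians, from -0.64 for mitochondrially encoded genes to 0.52 for snoRNA host genes; the list of the TRA2 paralogs is not drawn.

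The keratins *KRT8* (772 ± 20.5 TPM in Control KD and 864 ± 26.0 TPM in *TRA2B* KD, SD, n = 3) and *KRT18* (1155 ± 39.0 and 1300 ± 62.0 TPM) were high beside *VIM*, vimentin (1599 ± 14.5 and 1646 ± 37.3 TPM), whereas *EPCAM* and *CDH1* were under 2 TPM on average in both groups. The lung markers *SFTPA1*, *SFTPC* and *SCGB1A1* were listed at 0 in all 6 libraries, and none of 8 lung markers, 4 endothelial markers or 4 erythroid markers passed the filter on low values. *KRT7*, the epithelial marker of largest change, was lower, at 3.36, 4.49 and 4.003 TPM in Control KD and at 2.89, 2.25 and 2.58 TPM in *TRA2B* KD (-0.71, limma adjusted p = 0.421). After scaling, 3 of the 5 epithelial markers tested were higher and 2 lower, with a median of 0.05. The summed TPM of the epithelial list, without scaling, was 1910 to 1976 in Control KD and 2096 to 2266 in *TRA2B* KD. That of the mesenchymal list was 1609 to 1639 and 1643 to 1715, of the fibroblast list 33.6 to 38.3 and 37.7 to 47.2, and of the immune list 9.31 to 12.9 and 8.38 to 9.56. The part of these sums in the results was not tested.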

How the data were processed

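RNA-seq was made from poly(A)-selected, directional libraries of 3 replicates per condition. The authors deposited TPM per gene, quantified according to their methods against Gencode v34 transcripts (GRCh38) using kallisto v0.48.0, and their notes also list STAR 2.7.3. Their differential test, limma-voom on counts, was not repeated, because TPM keeps no depth, so no counting error can be given. TPM columns summed to 948520 to 953485. The filter kept a gene if 4 or more of the 12 libraries of its line reached 1 TPM. Values were scaled by trimmed means of log ratios without weights (30% trimmed by ratio, 5% by level, factors of 0.903 to 1.05 in the 6 libraries) and tested on log2(scaled TPM + 0.1), where fold changes of low genes are understated, with limma 3.58.1 (R 4.3.3, mean-variance trend, two-sided, Benjamini-Hochberg over all genes tested), with the 4 groups of a line in one fit. The code was tested on simulated data. Figures were drawn with matplotlib 3.10.9. DEGs passed an adjusted p of 0.05 and changed by more than 1 on the log2 scale in either direction.

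Named were the paralogs, every gene at an adjusted p under 0.05, the 10 highest and 10 lowest by fold change with at least 5 TPM in a group and no overlap, members of largest change in each list, and all SR proteins and RT-PCR targets. The 28 gene names that read as dates were left out of the text. Genes near a DEG and in other lines followed from these. The comparison and the lists were chosen with earlier results of these data known. Gene positions and biotypes came from Gencode v44, matched by symbol for 13410 (82.3%) of the genes tested, and promoters from RefSeq (GRCh38.p14). The deposited gene names include clone names such as *RP3-339A18.6*, so the names may come from another release than Gencode v34. Alternatives were the pseudocount, filter, scaling, groups fitted, replicate block, variance model, length and GC trend, and leaving out each library. Replicate numbers did not pair the samples, since deviations of same-numbered libraries correlated at -0.0065, 0.048 and -0.030. The files held 0 columns of other samples. The sequence and position of the other control guide are not reported here.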

Additional observations from a re-analysis of the deposited data

How the results depend on the processing

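*TRA2B* kept its direction and its call in all 18 alternatives (log2 fold changes of -3.47 to -3.23), and no value reversed among those with a test. Of the 32 genes called, 7 passed in every alternative (*TRA2B*, *STAT6*, *FBXO44*, *MTIF2*, *TM4SF1*, *FBXO2* and *F2RL1*). The 18 DEGs became 10 with a minimum of 5 TPM (fewer genes tested), 8 with the 2 compared groups alone in the fit (fewer samples), 32 with no minimum fold change and 7 to 21 when 1 library was left out. The 32 genes at an adjusted p under 0.05 became 20 with no filter on low values, 13 with the 2 groups alone and 9 to 33 when 1 library was left out. With the replicate block there were 9 DEGs and 16 genes at an adjusted p under 0.05, *TRA2A* was at 0.46 (limma adjusted p = 0.0616) and 1 list member was called; the number marks no known pairing, and 1 of 3 *TRA2B* KD libraries correlated best with the Control KD library of its own number. Members of gene lists that were called numbered 2, and 5 with TPM as deposited, 1 without mitochondrially encoded genes, 1 with the 2 groups alone and 1 when any 1 library was left out. *TRA2A* lost its call without mitochondrially encoded genes (0.42, limma adjusted p = 0.147), with the 2 groups alone (0.46, limma adjusted p = 0.0610) and when any 1 library was left out (0.43 to 0.50). The 65 DEGs against *TRA2A* KD became 106 with TPM as deposited, 24 with the 2 groups alone, 309 with no minimum fold change, 43, 41 and 39 without *TRA2B* KD replicates 1, 2 and 3 and 113 without *TRA2A* KD replicate 1 (39 to 113 in all). The 38 DEGs of A549 became 6 with the 2 groups alone and 20 to 67 when 1 library was left out, the highest without Control KD replicate 2, while leaving out *TRA2B* KD replicates 1, 2 and 3 gave 21, 20 and 24. TPM as deposited shifted the median of all genes by 0.116 on the log2 scale. Of the values of single genes, 636 kept their side of the threshold, 175 fell short of it and 4 newly passed, and of the list medians 438 stayed within the spread of replicates and 115 moved beyond it. Testing only genes found in Gencode v44 was chosen after seeing the data and gave 17 DEGs, 35 genes at an adjusted p under 0.05. Unless the filter or the number of samples is named, the cause was not tested. TPM carries no read depth, so how far depth limits the low genes is unknown.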

Other observations

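A549 had 18 DEGs besides the shared ones that were tested in NCI-H23 and did not pass there. They are named after their values were seen. *CDC42EP1*, an effector of the GTPase CDC42, had a log2 fold change of 1.08 in A549 and 0.59 in NCI-H23 (limma adjusted p = 0.0580 in NCI-H23). *PQLC2*, a lysosomal transporter of cationic amino acids, was at 1.62 and 0.71 (limma adjusted p = 0.0797), *PLD2*, phospholipase D2, at 1.73 and 0.69 (limma adjusted p = 0.0904), and *ACO1*, the iron-responsive cytosolic aconitase, at 1.01 and 0.66 (limma adjusted p = 0.167). *ZNF185* (1.21 in A549) and *PITPNM1* (1.19 in A549) were at 0.04 in NCI-H23, with limma adjusted p values of 0.937 and 0.923. The difference between the lines was not tested for any of these genes.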
